A study of Homo sapiens with 6 samples.

Results

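The mRNAs described here encode the peroxiredoxins PRDX1 to PRDX6, thioredoxin (TXN), its reductase TXNRD1, superoxide dismutase SOD1 and glutathione peroxidase GPX4, measured in extracellular vesicles (EVs) released by T cells. They were chosen by name, as all probe sets whose only gene symbol in the platform annotation is that of a listed thiol redox gene. The list was drawn up with earlier results of these data known. Of the 10 listed genes, 9 had such a probe set, with 1 probe set each, among 18417 genes measured in all. PRDX5 had none, so its level is not given. The CD47- EVs came from JinB8 cells, a Jurkat somatic mutant line that lacks CD47 (n = 3 arrays), and were compared with EVs of the WT line, Jurkat, which derives from a human T cell leukemia (WT EVs, n = 3 arrays). EVs were collected after 24 to 48 h of culture without serum in HITES medium, and 300 ng of total EV RNA was labeled for each Affymetrix human gene array. JinB8 is a single mutant line, so the loss of CD47 and any other difference between the lines cannot be told apart. The labels name Exo-quick or Exo-spin for the isolation of EVs without assigning a kit to a preparation, and they do not state whether the replicates are separate cultures, so p values cover the spread between these arrays only.

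Peroxiredoxins reduce hydrogen peroxide and organic peroxides with a reactive cysteine. Most are returned to the reduced form by thioredoxin, which thioredoxin reductase recharges with electrons from NADPH. SOD1 turns superoxide into hydrogen peroxide, and GPX4 reduces lipid hydroperoxides in membranes with glutathione and thereby restrains ferroptosis. Thioredoxin was purified from human T leukemia virus-transformed cells as a factor that these cells release, and PRDX1 and PRDX2 are abundant in the cytosol of most cells.

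GPX4 and PRDX1 were higher in CD47- EVs, and the other 7 measured genes did not pass the test. Their values are log2 values from RMA, a procedure that corrects background, aligns the distributions of the arrays and summarizes the probes of a probe set, so a value gives the place of an mRNA relative to the other RNA of that EV preparation. More vesicles that carry an mRNA and more of that mRNA per vesicle cannot be told apart in such bulk RNA. Differences were tested with limma over all genes, with Benjamini-Hochberg adjustment, and a gene was called at an adjusted p under 0.05. By this rule 0.668% of all genes were called higher and 0.0163% lower, or 0.684% in either direction, so 2 of 9 called higher compares with 123 of 18417.

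GPX4 is a selenoprotein, and a promoter window of this gene is shown because GPX4 is the member with the smallest p. TXNRD1 is also a selenoprotein, and its promoter is shown because, of the 7 listed genes with an entry in the promoter table, it alone held the core of the antioxidant response element, the DNA element that NRF2 binds. Both stretches are the 250 bases before a RefSeq start site on the plus strand of GRCh38.p14, at chr19:1103744-1103993 for GPX4 and chr12:104215529-104215778 for TXNRD1. Capitals mark the GC box GGGCGG and the antioxidant response element core TGACNNNGC on either strand, which do not overlap each other in these stretches.
GPX4: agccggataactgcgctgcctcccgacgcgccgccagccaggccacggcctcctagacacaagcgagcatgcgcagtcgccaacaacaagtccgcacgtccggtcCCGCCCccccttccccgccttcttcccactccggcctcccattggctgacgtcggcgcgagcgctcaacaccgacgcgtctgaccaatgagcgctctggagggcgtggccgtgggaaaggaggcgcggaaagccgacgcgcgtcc
TXNRD1: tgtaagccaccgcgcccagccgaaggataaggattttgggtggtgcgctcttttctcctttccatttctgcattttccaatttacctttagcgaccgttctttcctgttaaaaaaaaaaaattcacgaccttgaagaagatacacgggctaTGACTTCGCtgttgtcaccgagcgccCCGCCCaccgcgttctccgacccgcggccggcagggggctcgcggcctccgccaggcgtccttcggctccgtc
The core TGACTTCGC began 99 bases before the TXNRD1 start site, and a second RefSeq start of TXNRD1 held a match on the opposite strand 102 bases before it. GPX4 also had other RefSeq start sites, with windows at chr19:1103807-1104056 and chr19:1104400-1104649. These held 1 and 4 GC box matches. For each gene the window shown is the first by position. The RefSeq table held 11 start sites for 7 of the listed genes, some of them with overlapping windows, and the TGACNNNGC core stood before 2 of these start sites, both of TXNRD1, against 10.9% of all 35116 windows of this length. The GC box was found before all 11 start sites, against 42.6% of all windows. The 7 genes include PRDX5, whose level was not measured, and leave out PRDX1, PRDX6 and SOD1. The arrays measure RNA in vesicles and not the use of a promoter.

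GPX4 had log2 values of 6.85, 6.995 and 6.99 in CD47- EVs, against 6.46, 6.57 and 6.42 in WT EVs. All CD47- arrays lay above all WT arrays, with little spread in either group (SD 0.08 and 0.08, n = 3 each). The difference was 0.46 (standard error 0.08), a 1.37-fold higher level with a 95% confidence interval of 1.22 to 1.55 (adjusted p = 0.0189 from limma). The call was lost without CD47- replicate 2 or 3 or WT replicate 1 or 3 (adjusted p from 0.0682 to 0.109, limma), with differences of 0.43 to 0.45 in those fits, and with variances not shared across genes (adjusted p = 0.395).

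PRDX1, a cytosolic peroxiredoxin, had values of 6.75, 6.60 and 7.08 in CD47- EVs, against 6.16, 6.34 and 6.23 in WT EVs. The groups did not overlap, and CD47- replicate 3 stood highest. The difference was 0.57 (standard error 0.11), a 1.48-fold higher level with a 95% confidence interval of 1.25 to 1.76 (adjusted p = 0.0415 from limma). This call was lost when any array other than CD47- replicate 2 was left out (adjusted p from 0.0709 to 0.201, limma), with variances not shared across genes (adjusted p = 0.609) and after a further quantile normalization (adjusted p = 0.0709). The call was also lost with the replicate number as a block (adjusted p = 0.052, limma). Without CD47- replicate 3 the difference of PRDX1 was 0.43.

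**Figure D1:**
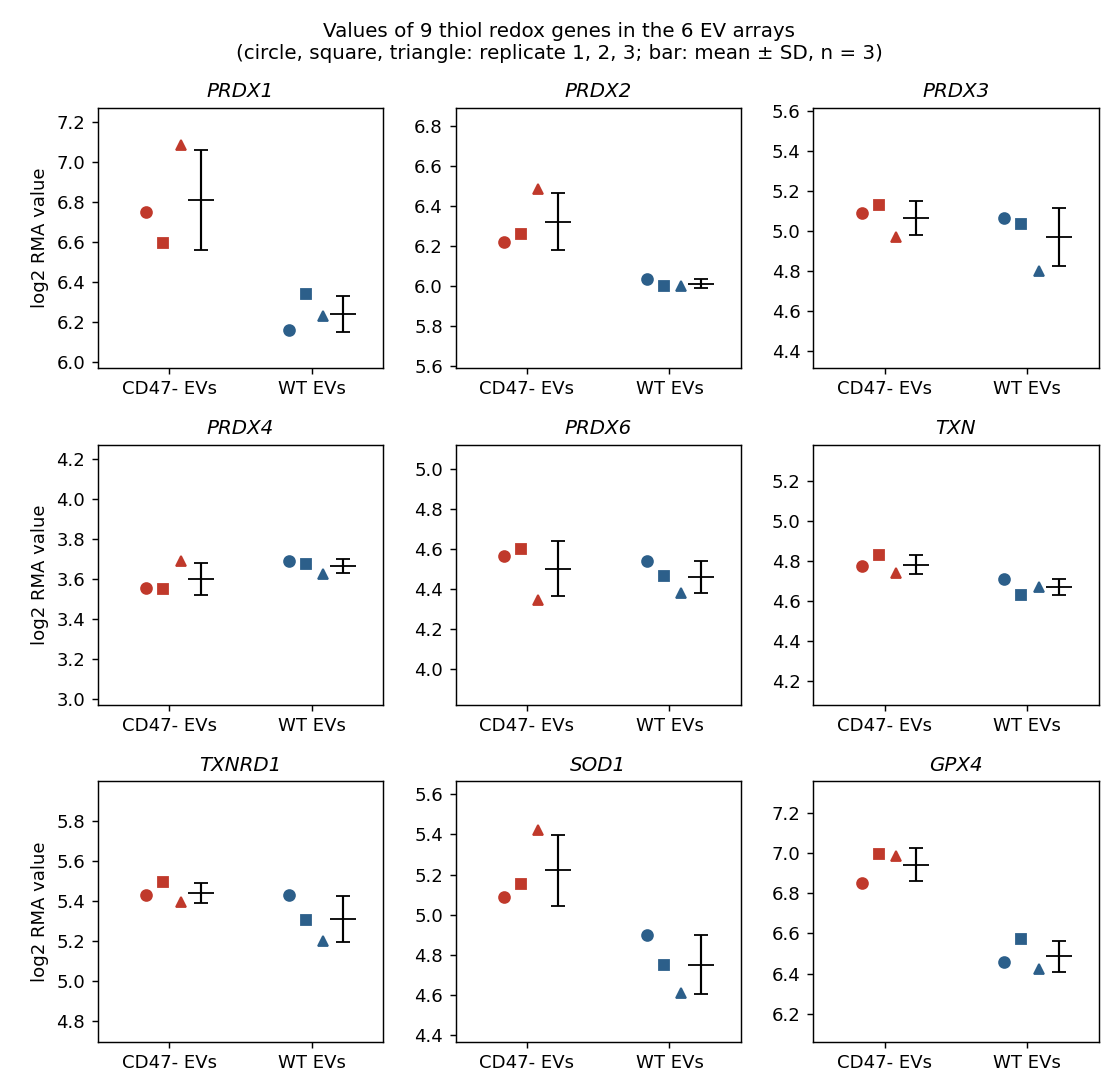
log2 RMA value (vertical axes, each spanning the same range of 1.3 log2 units) of the 9 measured genes in each array of CD47- EVs (red) and WT EVs (blue), with the mean and SD of each group (black, n = 3). GPX4, PRDX1, PRDX2, SOD1 and TXN show all CD47- arrays above all WT arrays, and the groups overlap for the other 4 genes.

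None of the remaining peroxiredoxins passed. PRDX2, another cytosolic member and an abundant protein of red cells, had values of 6.22, 6.26 and 6.48 in CD47- EVs, against 6.04, 5.997 and 5.997 in WT EVs. The groups did not overlap, and as for PRDX1 the highest array was CD47- replicate 3. Its difference of 0.31 (95% confidence interval 0.13 to 0.49) did not pass (adjusted p = 0.188 from limma). PRDX3, the peroxiredoxin of the mitochondrial matrix, had values of 5.09, 5.13 and 4.97 in CD47- EVs, against 5.07, 5.03 and 4.80 in WT EVs. These overlapped, with a difference of 0.10 (95% confidence interval -0.10 to 0.29) that lay between 0.013 when WT replicate 3 was left out and 0.15 when WT replicate 1 was, with 0.06 for CD47- replicate 2.
PRDX4, the peroxiredoxin of the endoplasmic reticulum, was the only measured member with a difference below 0. It had values of 3.56, 3.55 and 3.69 in CD47- EVs, against 3.69, 3.68 and 3.63 in WT EVs, which overlapped (difference -0.06, 95% confidence interval -0.23 to 0.10). The difference of PRDX4 was -0.04 without CD47- replicate 1 or 2 and -0.11 without CD47- replicate 3. PRDX6, which has a single catalytic cysteine and uses glutathione in place of thioredoxin, had values of 4.56, 4.60 and 4.34 in CD47- EVs, against 4.54, 4.46 and 4.38 in WT EVs. Its difference of 0.04 was smaller than the SD of either group (95% confidence interval -0.15 to 0.23), and it ran from -0.0070 without CD47- replicate 2 to 0.12 without CD47- replicate 3.

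TXN and TXNRD1 showed small differences. TXN had values of 4.77, 4.83 and 4.74 in CD47- EVs, against 4.71, 4.63 and 4.67 in WT EVs. The groups did not overlap, although the difference was only 0.11 (95% confidence interval -0.05 to 0.27, adjusted p = 0.787 from limma). TXNRD1 had values of 5.43, 5.49 and 5.39 in CD47- EVs, against 5.43, 5.30 and 5.20 in WT EVs. WT replicate 1 reached the level of the CD47- arrays, and the difference was 0.13 (95% confidence interval -0.05 to 0.30, adjusted p = 0.776 from limma), or 0.07 without WT replicate 3. The intervals of TXN and TXNRD1 reach from slightly lower to 1.21-fold and 1.24-fold higher levels in CD47- EVs.
SOD1, the copper and zinc enzyme of the cytosol, had values of 5.09, 5.15 and 5.42 in CD47- EVs, against 4.90, 4.75 and 4.61 in WT EVs. All CD47- arrays lay above all WT arrays. Its difference of 0.47 (standard error 0.10) was close in size to that of GPX4 but did not pass (adjusted p = 0.0775 from limma). SOD1 passed only when each array was centered on its olfactory receptor genes (difference 0.52, adjusted p = 0.0201 from limma). As arrays were left out it never passed, with differences from 0.37 to 0.54.

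**Figure D2:**
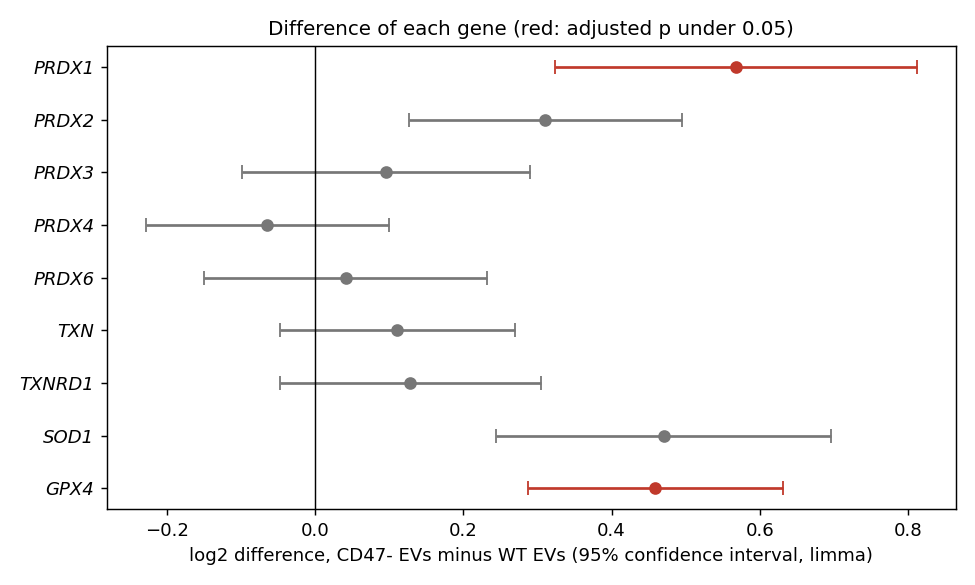
log2 difference between CD47- EVs and WT EVs (horizontal axis) with its 95% confidence interval from limma for each of the 9 measured genes, called genes in red and the others in grey. The intervals of PRDX1, PRDX2, SOD1 and GPX4 lie above 0, and those of the other 5 genes include 0.

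All CD47- arrays lay above all WT arrays for 5 of the 9 genes, against 7.3% of all genes, and below them for none, against 5.53%. By the unadjusted limma p, 4 of the 9 genes were higher at 0.05 and none was lower, against 5.16% and 2.87% of all genes. The median difference of the 9 was 0.13, beside 0.0029 over all genes. The differences of PRDX1, SOD1 and GPX4 exceeded those of 99.5%, 99.3% and 99.2% of all genes. Because the list was chosen with earlier results of these data known, these comparisons with all genes describe it and do not test it.

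Whether the members changed unequally was tested on the difference between the log2 values of a pair of genes within each array, by exact two-sided permutation over the arrays. With 3 arrays against 3 the smallest p is 0.1, so no pair could pass, and the gaps below only describe these arrays. Among the 10 pairs of peroxiredoxins, the difference of PRDX1 between CD47- EVs and WT EVs exceeded that of PRDX4 by 0.63, that of PRDX6 by 0.53 and that of PRDX3 by 0.47. In each of these pairs the arrays did not overlap (exact p = 0.1, adjusted p = 0.2 over the 10 pairs). The difference of PRDX2 exceeded that of PRDX4 by 0.37 and that of PRDX6 by 0.27 without overlap (exact p = 0.1, adjusted p = 0.2). The difference of PRDX1 exceeded that of PRDX2 by 0.26, with overlapping arrays (exact p = 0.2, adjusted p = 0.333). In the remaining pairs the arrays overlapped as well. The gaps there were 0.21 for PRDX2 over PRDX3, 0.16 for PRDX3 over PRDX4, 0.05 for PRDX3 over PRDX6 and -0.11 for PRDX4 over PRDX6. The share of pairs without overlap over all genes was not determined. Set against the other 8 measured members, GPX4 gave within-array differences that did not overlap for PRDX3, PRDX4, PRDX6, TXN and TXNRD1, from 0.33 to 0.52 (exact p = 0.1, adjusted p = 0.16 over the 8 pairs). GPX4 is the member with the smallest p in these same arrays, and PRDX1 was called in them too. PRDX2 had the largest difference of the other peroxiredoxins. The gaps of GPX4, PRDX1 and PRDX2 to members with small differences are therefore no separate evidence. For SOD1 and GPX4 the difference of differences was -0.01 (exact p = 1). GPX4 against PRDX1 gave -0.11 and against PRDX2 0.15, with overlapping arrays.

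Whether a probe set was detected is not recorded in the values. The 341 olfactory receptor genes, normally silent in T cells, therefore served to place the members, with a median level of 5.49 and a 95th percentile of 6.79 over their means. GPX4 lay above 93.0% of them, PRDX1 above 88.9% and PRDX2 above 78.0%, while SOD1, PRDX3, TXN, PRDX6 and PRDX4 lay above 34.3% or less and TXNRD1 above 47.5%. None of the 9 members lay above that percentile, so this comparison does not place them clear of background, and it is coarse since the binding of probes varies. Pseudogenes named after these genes in RefSeq, which probes can share, numbered 1 for PRDX1, 4 for PRDX2, 4 for PRDX3, 2 for PRDX4, 7 for TXN and 3 for SOD1. TXNRD1 overlaps EID3, TXNRD1-AS1 and the ribosomal pseudogene RPL18AP3, PRDX1 overlaps MMACHC, and SOD1 overlaps SOD1-DT. How far these add to the signals was not tested.

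Related redox genes were followed in 8 lists, with 95 of 101 listed genes measured. Of the 95, 1 was called higher, against 0.668% of all genes, none was called lower and 94 did not pass. Their median difference was 0.03. By the unadjusted limma p, 12 were higher and 3 lower at 0.05, against 5.16% and 2.87% of all genes. The called gene was TXNL4A (difference 0.69, standard error 0.10, adjusted p = 0.00711 from limma), listed for its thioredoxin fold but known as a component of the spliceosome. TXNL4A had values of 4.08, 3.72 and 4.13 in CD47- EVs, against 3.25, 3.26 and 3.34 in WT EVs, which did not overlap, and its mean lay above only 7.04% of the olfactory receptor genes.

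Of the other 16 measured genes of the thioredoxin system, none passed. The difference of greatest size among these was -0.28 for TXNDC9 (adjusted p = 0.333 from limma). TXN2, the mitochondrial thioredoxin, had a difference of 0.24, the thioredoxin inhibitor TXNIP of 0.06 and the sulfiredoxin SRXN1, which repairs overoxidized peroxiredoxins, of 0.04. Among 23 genes of the glutathione and glutaredoxin system the median difference was -0.0018 and none passed. GSTP1, a glutathione transferase, came nearest. It had values of 7.33, 7.34 and 7.20 in CD47- EVs, against 6.96, 6.94 and 6.83 in WT EVs, with no overlap and a difference of 0.38 (standard error 0.08, adjusted p = 0.0565 from limma). Glutathione reductase GSR had a difference of 0.25 (adjusted p = 0.333 from limma).
NADPH is the source of electrons for both systems. Of 12 genes of NADPH supply none passed, and PGD, the phosphogluconate dehydrogenase of the pentose phosphate pathway, had values of 6.34, 5.999 and 6.36 in CD47- EVs, against 5.83, 5.76 and 5.59 in WT EVs. Its groups did not overlap, and it differed by 0.50 with a standard error of 0.10 (limma, adjusted p = 0.0565). IDH2, a mitochondrial isocitrate dehydrogenase, differed by 0.22. Centering each array on its olfactory receptor genes, a variance trend with robust shrinkage or a test of brighter genes alone brought GSTP1 and PGD past the threshold. PGD also passed without CD47- replicate 2 (adjusted p = 0.0151, limma). In the remaining alternatives neither passed.

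Of 5 other genes that remove superoxide or hydrogen peroxide none passed, and 4 had differences above 0, among them 0.18 for SOD2, the mitochondrial dismutase, and 0.18 for the copper chaperone ATOX1. Of 13 NRF2 regulators and targets none passed. The ferritin light chain gene FTL had a difference of 0.48 (standard error 0.15), with values of 7.74 to 7.84 in CD47- EVs and a wide spread from 7.01 to 7.78 in WT EVs. FTL passed without WT replicate 1 (difference 0.71, adjusted p = 0.0047 from limma) and in no other of the 15 alternatives. Its difference was 0.32 without WT replicate 2 and 0.41 without WT replicate 3. MAFG, a small MAF partner of NRF2, had -0.19 in its brightest probe set and -0.05 as the mean of its probe sets. Of 13 genes of disulfide formation in the endoplasmic reticulum none passed, with -0.27 for TMX2 and 0.28 for the disulfide isomerase P4HB, which was 0.13 without WT replicate 3. None passed of 4 methionine sulfoxide reductases. MSRB1 had 0.19, or 0.11 without WT replicate 3, and MSRA had 0.11, or 0.02 without CD47- replicate 1 and 0.21 without CD47- replicate 2. None passed of 8 genes of selenoprotein synthesis, which serve GPX4 and TXNRD1. SEPHS2 had 0.16, and EEFSEC had 0.11, or 0.05 without CD47- replicate 1 and 0.17 without CD47- replicate 2.

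**Figure D3:**
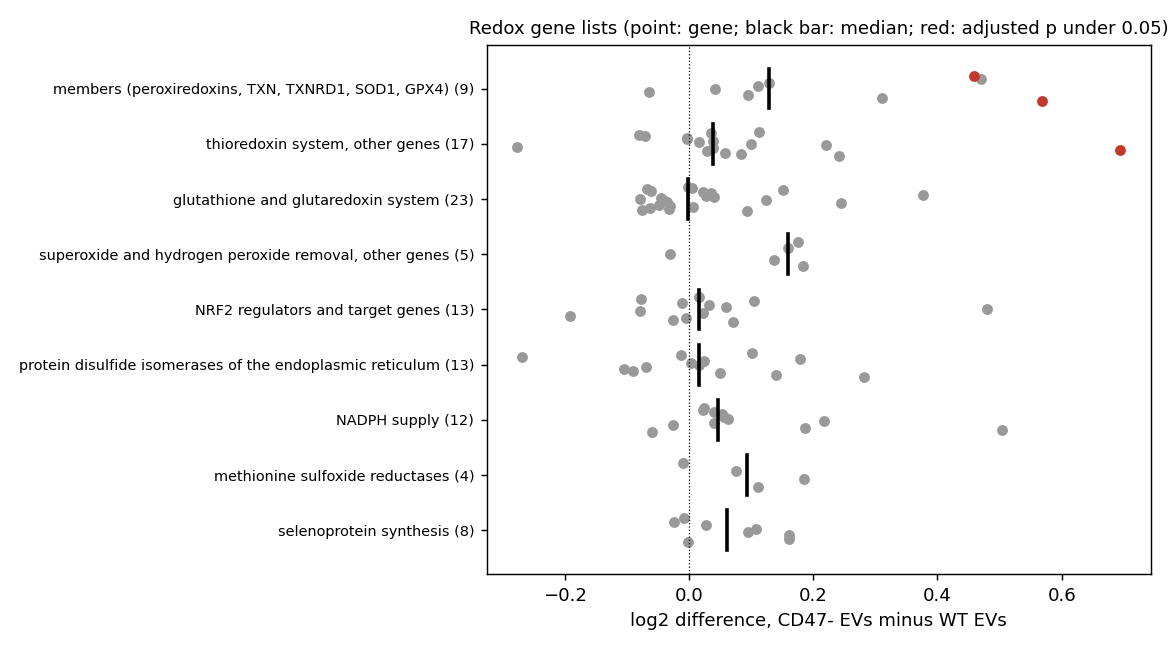
log2 difference between CD47- EVs and WT EVs (horizontal axis) of each measured gene (points) in the members and 8 related lists, with a black bar at each list's median and its count of measured genes beside the name. GPX4, PRDX1 and TXNL4A (red) were called, and the median of the members, 0.13, lies between those of the thioredoxin system, 0.04, and of the superoxide and peroxide genes, 0.16.

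Across the 6 arrays the genes with the profile most like that of GPX4 were the ribosomal protein gene RPL5 (Pearson r = 0.996, difference 0.64), SNX8 (r = 0.996, difference 0.18), KCNK12 (r = 0.996, difference 0.17), MAGED1 (r = 0.994, difference 0.53) and the linker histone gene H1-4 (r = 0.994, difference 1.23). RPL5, MAGED1 and H1-4 were called higher, and SNX8 and KCNK12 were not called (adjusted p = 0.508 and 0.527 from limma). The correlations are descriptions over 6 arrays that share the split into 2 groups.

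The CD47 probe set had 4.73 ± 0.19 in CD47- EVs and 4.71 ± 0.02 in WT EVs (SD, n = 3 each) and lay above 24.0% of the olfactory receptor genes, so it does not check the labels. The 6 arrays had medians of 5.08 to 5.14 over all probe sets. Of 13 T cell markers, 8 lay above the olfactory receptor median, against 7249 of all 18417 genes. So did 4 of 7 platelet, 3 of 7 erythroid, 3 of 9 liver, 2 of 7 myeloid and 2 of 6 B cell markers. The mean level of the T cell markers was 5.94 to 5.95 in CD47- EVs and 5.75 to 5.86 in WT EVs. This shift went in the same direction as GPX4 and PRDX1. None of the 13 was called, and the part of the shift in these results was not tested. By the unadjusted limma p, 4 of the 13 were higher at 0.05 and none lower, against 5.16% and 2.87% of all genes. All CD47- arrays lay above all WT arrays for 4 of the 13, against 7.3% of all genes, and below them for none. For 7 erythroid markers, relevant to PRDX2, the mean level was 5.26 to 5.27 in CD47- EVs and 5.23 to 5.31 in WT EVs, and none was called. Of the B cell, myeloid, platelet and liver markers none was called either, with median differences of -0.01, 5.6e-04, 1.5e-04 and -0.06. None of the 9 liver markers had a difference above 0. Of these 9, 1 was lower at an unadjusted limma p under 0.05, against 2.87% of all genes. All CD47- arrays lay below all WT arrays for 1 of the 9, against 5.53%. The B cell, myeloid and platelet lists had none of either kind in either direction.

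**Figure D4:**
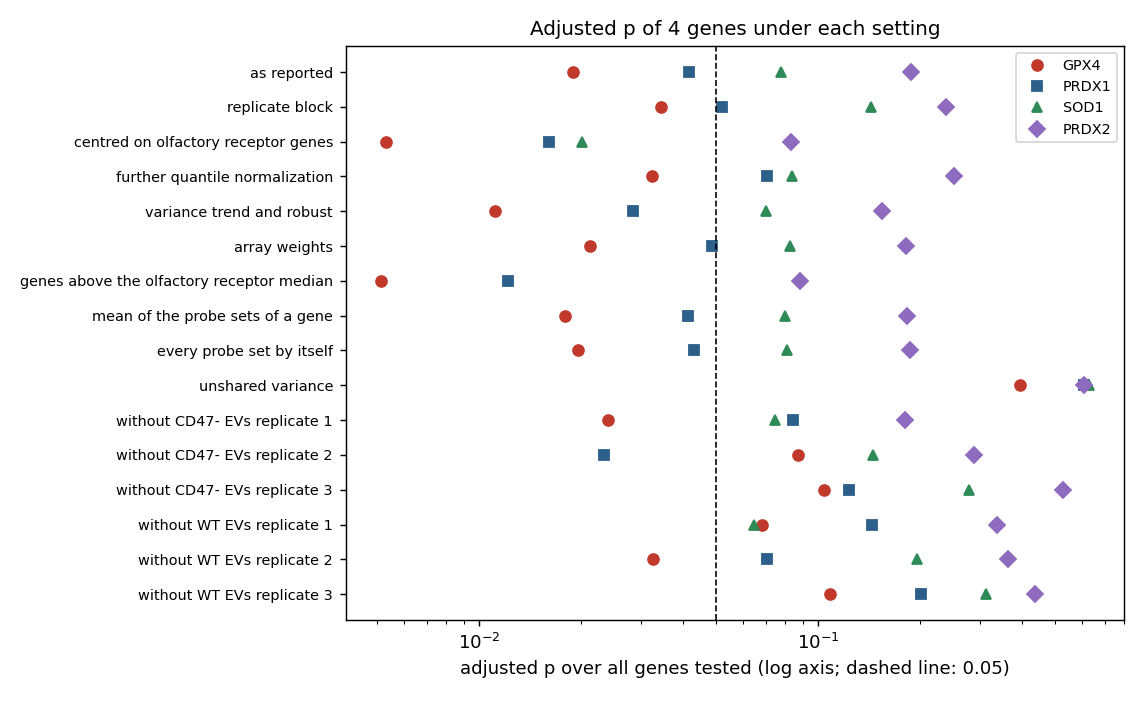
Adjusted p over all genes tested (horizontal log axis) for GPX4, PRDX1, SOD1 and PRDX2 in the fit as reported and under each alternative (rows), with a dashed line at 0.05. GPX4 lies left of the line in 10 of 15 alternatives, PRDX1 in 7 of 15, SOD1 only when arrays were centered on olfactory receptor genes, and PRDX2 in none.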

How the data were processed

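RNA of EVs was measured on 6 arrays, 3 for each cell line, grouped by the sample titles. The authors deposited log2 values from RMA, run in Affymetrix Expression Console per the labels. Its version is not given in the sources. The number of arrays limits the precision. Gene names came from the platform annotation, in which 19460 of 33297 probe sets had a single symbol. Where a gene had several (769 genes), the brightest on average stood for the gene. Dim genes were kept. Tests used lmFit and eBayes of limma 3.58.1 in R 4.3.3 and had been checked on simulated data that followed limma's own model. That check does not show how well the model describes these arrays.
The members and lists were chosen with earlier results of these data known. Named were all members, up to 4 called genes of each related list or, where none was called, the 2 with the smallest p, the 5 genes most like the member with the smallest p, and CD47. TXN2, TXNIP, SRXN1 and TXNDC9 were added after their values were seen. Promoters came from RefSeq on GRCh38.p14, where 7 of the 10 listed genes were matched by symbol. Alternatives were the replicate number as a block, arrays centered on olfactory receptor genes, quantile normalization applied again, a variance trend with robust shrinkage, array weights, a filter on dim genes, the mean of a gene's probe sets, every probe set by itself, unshared variances and leaving out each array.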

Additional observations from a re-analysis of the deposited data

How the results depend on the processing

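The 9 members kept the direction of their difference under those of the 15 alternatives in which they were tested, except PRDX6, whose difference ran from -0.0070 (leaving out CD47- replicate 2) to 0.12 as arrays were left out. CD47 ran from -0.088 (leaving out CD47- replicate 3) to 0.091. The number of members called higher, 2 as reported, was 1 with the replicate number as a block, 1 after a further quantile normalization, 0 with unshared variances (5 at an unadjusted p under 0.05, and 4 with limma as reported) and 0 to 1 when an array was left out. It was 0 without CD47- replicate 3, WT replicate 1 or WT replicate 3, in each of which 4 were higher at an unadjusted p under 0.05. Over all genes, 123 were called higher and 3 lower as reported. Centering on the olfactory receptor genes, which moved the median difference of all genes to 0.05, gave 214 higher, unshared variances gave 1 higher and 0 lower (796 and 508 at an unadjusted p under 0.05), and leaving out an array gave 53 to 96 higher and 1 to 5 lower. Higher genes numbered 53 when WT replicate 3 was left out, 58 for CD47- replicate 3 and 77 for CD47- replicate 2. Lower genes numbered 5 when CD47- replicate 1 was left out, and 1 for CD47- replicate 3 or WT replicate 3. Fewer arrays were fitted there, and for the other alternatives the cause was not tested.
Deviations of arrays with the same replicate number correlated with r of 0.02, -0.02 and -0.04, so the values show no pairing by number. Whether arrays with the same number were prepared together is not settled by this. With the block PRDX1 was the member no longer called (adjusted p = 0.052 from limma), GPX4 was called (adjusted p = 0.0345), and 106 genes were called higher and 3 lower. Without a filter, dim probe sets may be unable to show a change. With only genes above the olfactory receptor median kept, 3 members were tested and GPX4 and PRDX1 were called.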
